A study of Neurospora crassa with 12 samples.

Results

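The histidine response of the Neurospora crassa mutant Δclr-5 is the difference between Δclr-5 mycelium supplied with histidine as its sole nitrogen source and Δclr-5 mycelium on standard Avicel medium. It rests on 4 of the 12 libraries of the series, chosen by their strain and medium labels, and covers 9730 genes, of which 8805 had enough counts to be tested. Δclr-5 is a single deletion strain that lacks NCU05383 (clr-5, listed as col-24 in RefSeq), which encodes a zinc cluster transcription factor. The series set this strain against the wild type (WT) on Avicel, on Avicel with histidine and on Avicel with leucine, with 2 cultures of each combination. The 2 Δclr-5 histidine cultures received 2% Avicel, a microcrystalline cellulose, in Vogel's salts without nitrogen plus 50 mM histidine. The 2 Δclr-5 Avicel cultures received 2% Avicel in complete Vogel's salts, in which ammonium nitrate is the nitrogen source. The media therefore differed both in histidine and in ammonium nitrate, and those changes cannot be told apart. The labels give 8 h of induction and the methods section gives 4 h, so the time is uncertain. Nothing in the labels says that cultures with the same number were started together. The p-values rest on a spread between cultures that was pooled over all 12 libraries, and they cover these cultures only.

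Filamentous fungi take up ammonium and glutamine in preference to other nitrogen sources. When only a less favoured source such as a single amino acid is present, genes for amino acid permeases and for catabolic enzymes are released from nitrogen catabolite repression, in N. crassa with the GATA factor NIT2. Amino acid synthesis is governed separately by the general amino acid control factor CPC1. Cellulose induces secreted cellulases, polysaccharide monooxygenases and xylanases through the regulators CLR-1, CLR-2 and XLR-1, and the enzymes pass through the endoplasmic reticulum (ER) on their way out.

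The libraries held between 16797962 and 20381308 counts, with 19549810 and 17539481 in Δclr-5 on histidine and 18730268 and 18884865 in Δclr-5 on Avicel. Levels are given as CPM, counts scaled to TMM-corrected library totals, in order of culture number. The deleted gene checked the strain labels. clr-5 stood at 1.63 and 1.31 CPM in Δclr-5 on histidine and at 2.02 and 1.94 CPM in Δclr-5 on Avicel, and between 20.2 and 47.5 CPM in the 6 WT libraries. Its log2 fold change within the mutant was -0.42 ± 0.24 SE, adjusted p = 0.152, which did not pass the test. The strains also differed at the mating type locus: matA-1 had no count in any Δclr-5 library and 9.37 to 123 CPM in WT, and mfa-1, for the pheromone of the opposite mating type, had 398 to 26988 CPM in Δclr-5 and 2.52 to 7.54 CPM in WT. Loss of clr-5 and mating type cannot be told apart as sources of a strain difference. The 2 Δclr-5 Avicel cultures resembled each other less than other pairs. Of the genes with at least 20 counts, 11.1% differed by over 2-fold between these 2 cultures, against 1.33% between the 2 Δclr-5 histidine cultures. Δclr-5 Avicel culture 2 had higher levels of conidiation genes than culture 1, and results that turn on it are given without it as well. A fit without 1 culture leaves 1 library in that group, so the spread in it comes from the other groups. Calls gained in such fits are therefore no stronger evidence.

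On histidine, 2397 genes were higher and 2433 lower than on Avicel in Δclr-5, or 27.2% and 27.6% of the tested genes (54.9% in either direction). A gene counts as changed, here and below, when edgeR's quasi-likelihood test gives an adjusted p under 0.05 and the log2 fold change is 0.5 or more in size. The median log2 fold change over all tested genes was 0.03. In bulk mycelium, fewer hyphae of a given kind and less RNA per hypha cannot be told apart. When scaled by library totals alone the median was 0.38 and the split became 3481 higher and 1682 lower, so small shifts in either direction depended on the scaling. The large decreases outnumbered the large increases. At a log2 fold change of 3 or more, 183 genes were higher and 383 lower, and at 5 or more 28 were higher and 159 lower. Both histidine libraries lay above both Avicel libraries for 40.4% of the tested genes and below them for 37.1%. The plot of all tested genes shows this asymmetry together with the genes that stand farthest out.

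**Figure D1:**
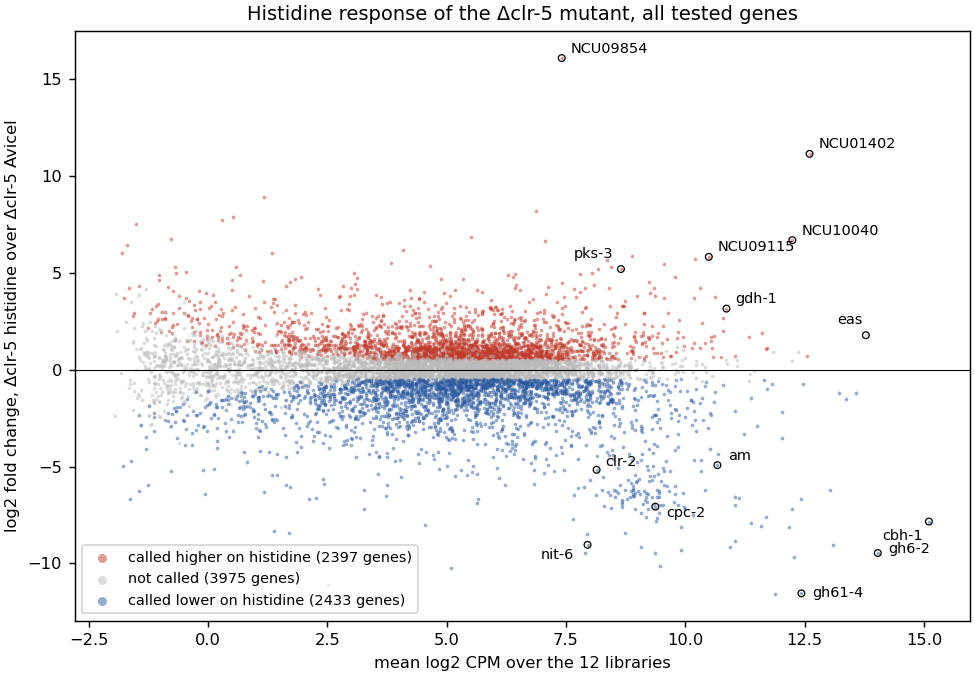
Log2 fold change of Δclr-5 on histidine over Δclr-5 on Avicel (y axis) against the mean log2 CPM over 12 libraries (x axis), 1 point per tested gene. Red points are the 2397 genes called higher, blue points the 2433 called lower and grey points the rest. The deep blue cloud between -5 and -8 holds cpc-2 and most of the listed ribosomal protein genes.

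Most genes for amino acid uptake and oxidation were higher on histidine. Of 13 tested members 8 were higher and 1 lower on histidine, with a median log2 fold change of 1.03, beside 27.2% higher and a median of 0.03 over all genes. NCU01402, annotated as indoleamine 2,3-dioxygenase, an enzyme that opens the ring of tryptophan, had 17358 and 18508 CPM on histidine, against 1.53 and 14.4 CPM on Avicel. In both histidine libraries no gene but eas had a higher CPM, whereas on Avicel NCU01402 was low, most of all in culture 1. Its log2 fold change was 11.12 ± 0.99 SE, adjusted p = 7.36e-06. The neutral amino acid permease gene mtr had 1544 and 1795 CPM on histidine, against 12.9 and 64.3 CPM on Avicel (5.43 ± 0.64 SE, adjusted p = 6.23e-05). The proline-specific permease gene NCU00721 had 469 and 499 CPM on histidine, against 26.3 and 44.5 CPM on Avicel (3.77 ± 0.29 SE, adjusted p = 1.47e-06). The 2 media did not overlap in any of these 3 genes, which was common. Over all tested genes, both histidine libraries lay above both Avicel libraries for 40.4% and below them for 37.1%.

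Permeases of other classes moved less. pmg, which encodes the general amino acid permease, had 356 and 349 CPM on histidine, against 82.6 and 83 CPM on Avicel (2.09 ± 0.21 SE, adjusted p = 9.75e-06). pmb, for the permease of basic amino acids, which include histidine, had 39.4 and 38.2 CPM on histidine, against 16 and 15.7 CPM on Avicel (1.29 ± 0.20 SE, adjusted p = 0.000245). The L-amino acid oxidase gene lao had 19.1 and 18.3 CPM on histidine, against 9.55 and 8.77 CPM on Avicel (1.03 ± 0.17 SE, adjusted p = 0.000452), and the ornithine aminotransferase gene ota rose by 1.58 on the log2 scale. NCU09458, an amino acid permease gene, was the smallest of the 8 increases (0.53), and its call was lost without Avicel culture 1 (0.43) or without histidine culture 2 (0.50). The single decrease belonged to NCU00711, annotated as a multidrug resistance protein and counted among amino acid permeases in the study, with 7.42 and 8.77 CPM on histidine, against 17.1 and 16.5 CPM on Avicel (-1.05 ± 0.15 SE, adjusted p = 0.000142). aap-2, NCU01481, NCU01106 and NCU02195 did not pass the test.

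Of 9 genes for ammonium and glutamate 2 rose and 3 fell, a share near the 54.9% called among all genes, and the 2 glutamate dehydrogenases moved in opposite directions. gdh-1, which encodes the NAD-specific glutamate dehydrogenase that releases ammonium, had 3366 and 3732 CPM on histidine, against 331 and 476 CPM on Avicel (3.14 ± 0.24 SE, adjusted p = 1.42e-06). am, which encodes the NADP-specific glutamate dehydrogenase that assimilates ammonium, had 46.6 and 57.7 CPM on histidine, against 2411 and 774 CPM on Avicel (-4.93 ± 0.60 SE, adjusted p = 6.23e-05). The glutamine synthetase gene gln-1 had 108 and 129 CPM on histidine, against 639 and 543 CPM on Avicel (-2.32 ± 0.18 SE, adjusted p = 1.8e-06). For each of these genes the 2 histidine libraries lay apart from the 2 Avicel libraries, as they did for most tested genes. gln-2, the other glutamine synthetase gene, and the glutamate synthase gene en(am)-2 had log2 fold changes of -0.07 and -0.14 and were not called. NCU01065, annotated as an ammonium transporter, rose by 0.60 on the log2 scale, a call that was lost without histidine culture 1 (0.56, adjusted p = 0.0681), which leaves 1 increase. pro-4, the third decrease, fell by 0.90 on the log2 scale, a call that was lost without Avicel culture 1 (-0.49) or without histidine culture 2.

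In the nitrate list of 8 genes, 4 were higher and 2 lower. nit-6, the nitrite reductase gene, had 1.37 and 1.31 CPM on histidine, against 1106 and 319 CPM on Avicel (-9.04 ± 0.70 SE, adjusted p = 4.03e-06). nit-3, the nitrate reductase gene, fell by 1.55 on the log2 scale. Both enzymes serve the use of nitrate, which was supplied in the Avicel medium and not in the histidine medium. Their regulators changed otherwise: nit-4, the pathway-specific activator, had 27.7 and 30 CPM on histidine, against 11.1 and 10 CPM on Avicel (1.45 ± 0.15 SE, adjusted p = 1.59e-05), and nmr, whose product holds back the nitrogen regulator NIT2, had 115 and 96.5 CPM on histidine, against 35.3 and 46.2 CPM on Avicel (1.37 ± 0.18 SE, adjusted p = 6.85e-05). nit-2 itself stood at 136 and 142 CPM on histidine, against 190.3 and 116 CPM on Avicel, and was not called (-0.14, adjusted p = 0.617). nit-10 (0.57), a nitrate transporter gene, was called higher, but not without Avicel culture 2 (0.23) or with either histidine culture left out. pco-1, the purine catabolism regulator gene, reached a log2 fold change of 0.45 (adjusted p = 0.0244) but not the fold threshold. Of 13 genes for purines, urea and amides, 3 rose and 3 fell, a share near that over all genes (27.2% higher and 27.6% lower). The increases were aln-1 (1.46), the purine transporter gene NCU01882 (1.06) and xdh-1 (0.72). xdh-1 and aln-1 encode xanthine dehydrogenase and allantoinase of the purine breakdown route, and the call of xdh-1 was lost without Avicel culture 2 (0.47). The decreases were those of the hydroxyisourate hydrolase gene NCU01428 (-1.68), the urease accessory gene NCU01511 (-1.54) and the amidohydrolase gene NCU00905 (-1.35).

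**Figure D2:**
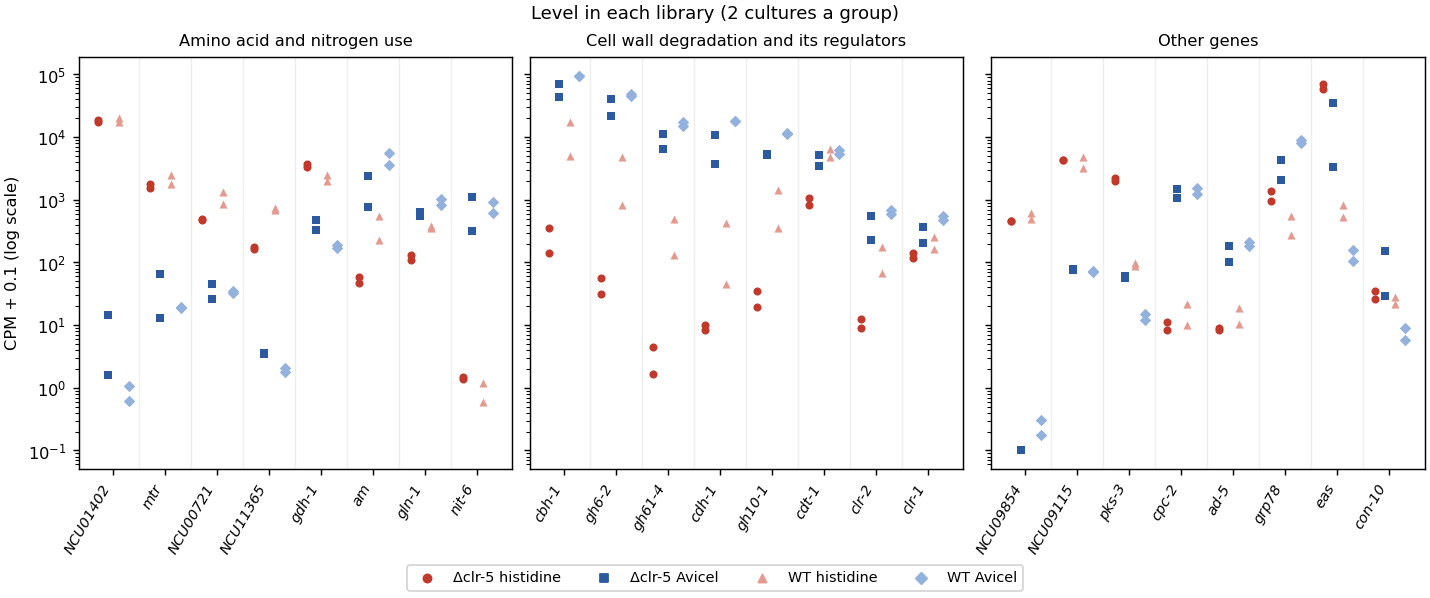
Level of 24 genes in each library, as CPM + 0.1 on a log axis, with 2 points per group. Red circles mark Δclr-5 on histidine and dark blue squares Δclr-5 on Avicel, with WT in paler colours. For NCU01402 the red circles stand at 17358 and 18508 CPM above squares at 1.53 and 14.4 CPM, whereas for gh61-4 they stand at 1.54 and 4.36 CPM below squares at 11055 and 6458 CPM.

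The list of genes that make or break down histidine, serine, threonine and the branched-chain amino acids held 22. Of these 11 were lower and 4 higher (27.6% and 27.2% over all genes), with a median of -0.73. The largest increase was that of NCU11365, an aminotransferase placed in histidine metabolism in the study, with 163 and 177 CPM on histidine, against 3.37 and 3.44 CPM on Avicel (5.64 ± 0.19 SE, adjusted p = 2e-08). Genes of histidine synthesis did not move together. his-2, for ATP phosphoribosyltransferase, the first step, had 20.6 and 23 CPM on histidine, against 109.9 and 86.2 CPM on Avicel (-2.17 ± 0.22 SE, adjusted p = 1.27e-05), and his-7 fell by 0.58 on the log2 scale, a call that was lost without Avicel culture 2 (-0.42) or without histidine culture 2. his-3, in contrast, had 186 and 197 CPM on histidine, against 129.7 and 105 CPM on Avicel (0.71 ± 0.17 SE, adjusted p = 0.00444), and his-6 was not called (-0.18, adjusted p = 0.402). Among the decreases were trp-3 (-3.08), the tryptophan synthase gene, ilv-2 (-2.92) and hom-1 (-2.35), whereas ilv-5 (1.44) and ser-7 (0.83) rose. For ilv-5 the value was 2.19 without Avicel culture 2 and 0.95 without Avicel culture 1. leu-2 was not called at -0.88, and it stood at 0.86 without Δclr-5 Avicel culture 1 and at -1.65 without Δclr-5 Avicel culture 2.

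The list around the general amino acid control showed the sensor and the transcription factor of the pathway higher while most synthesis genes were lower. Of 27 members 17 fell and 4 rose (27.6% and 27.2% over all genes), with a median of -1.59. The 4 that rose, named after their values were seen, were cpc-3 (1.79), for the kinase that senses uncharged tRNA, arg-13 (1.17), cpc-1 (1.08) and arg-4 (0.96). cpc-1 had 2789 and 3271 CPM on histidine, against 1571 and 1305 CPM on Avicel. Among the decreases, lys-7 had 11.5 and 10.8 CPM on histidine, against 186 and 101 CPM on Avicel (-3.69 ± 0.32 SE, adjusted p = 5.91e-06), arg-6 fell by 3.40 on the log2 scale and arg-3 by 3.51, or -1.78 without Δclr-5 Avicel culture 1. The largest decrease was that of cpc-2, which encodes a ribosome-associated protein of the RACK1 family, with 10.9 and 8.29 CPM on histidine, against 1500.4 and 1084 CPM on Avicel (-7.07 ± 0.42 SE, adjusted p = 3.17e-07). In the sulfur list 9 of 19 genes fell and met-7 alone rose (0.82), where 27.6% of all genes fell and 27.2% rose. Those that fell most were eth-1 (-4.28), for S-adenosylmethionine synthetase, met-8 (-4.02), the sulfate adenylyltransferase gene cys-11 (-3.89) and the sulfate permease gene cys-14 (-3.85). In place of 1 increase in the sulfur list there were 2 with either Avicel culture left out or without histidine culture 2.

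The listed genes for cytosolic ribosomal proteins, the building blocks of the translation machinery, all fell, where 27.6% of all genes did. The list need not hold every such gene. All 27 tested members were lower, with a median log2 fold change of -6.24 and a range of -7.66 to -0.60. Together they took 0.0979% and 0.0974% of the counts in Δclr-5 on histidine, against 2.92% and 3.12% in Δclr-5 on Avicel. NCU01776, annotated as the large subunit protein L15, had 7.37 and 6.49 CPM on histidine, against 1595 and 1210.1 CPM on Avicel (-7.66 ± 0.40 SE, adjusted p = 9.41e-08). crp-15, for the small subunit protein S7, had 5.19 and 6.88 CPM on histidine, against 925 and 733 CPM on Avicel (-7.10 ± 0.30 SE, adjusted p = 2.93e-08). The gene for a translation elongation factor, tef-1, had 4498 and 5611 CPM on histidine, against 11562 and 11819 CPM on Avicel (-1.21 ± 0.24 SE, adjusted p = 0.00132). With scaling by library totals alone 26 of the 27 ribosomal genes were called lower.

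Purine synthesis genes fell in 5 of 6 cases (27.6% over all genes), with a median of -2.08. ad-7 stood at 0.772 and 2.66 CPM on histidine, against 86.4 and 46.9 CPM on Avicel (-5.30 ± 0.46 SE, adjusted p = 7.56e-06), and ad-5 at 8.36 and 9.06 CPM, against 185 and 103 CPM on Avicel (-4.05 ± 0.33 SE, adjusted p = 4.12e-06). Respiratory complex I genes fell by small steps: 20 of 29 were lower and 0 higher, with a median of -0.62, led by nuo10.4 (-1.97). In the tricarboxylic acid cycle list 9 of 16 were lower and 0 higher, with a median of -0.55, led by tca-2 (-2.32, or -1.52 without Avicel culture 1). Without Avicel culture 1, 1 gene of this list was called higher. Proteasome genes moved the other way. Of 30 tested members 14 were higher and 1 lower (27.2% and 27.6% over all genes), with a median of 0.46. rpn-4, a transcription factor gene named for the proteasome regulator of yeast, had 296 and 327 CPM on histidine, against 88.7 and 51.6 CPM on Avicel (2.15 ± 0.38 SE, adjusted p = 0.000948), and the core subunit gene pcb-6 had 254 and 276 CPM on histidine, against 137 and 132 CPM on Avicel (0.98 ± 0.13 SE, adjusted p = 8.83e-05). With library totals alone the median of all genes was 0.38, 9 complex I genes were lower, 2 genes of the tricarboxylic acid cycle were higher and 6 lower, and 23 proteasome genes were higher and 0 lower. The 1 lower proteasome gene became 2 without Avicel culture 1.

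**Figure D3:**
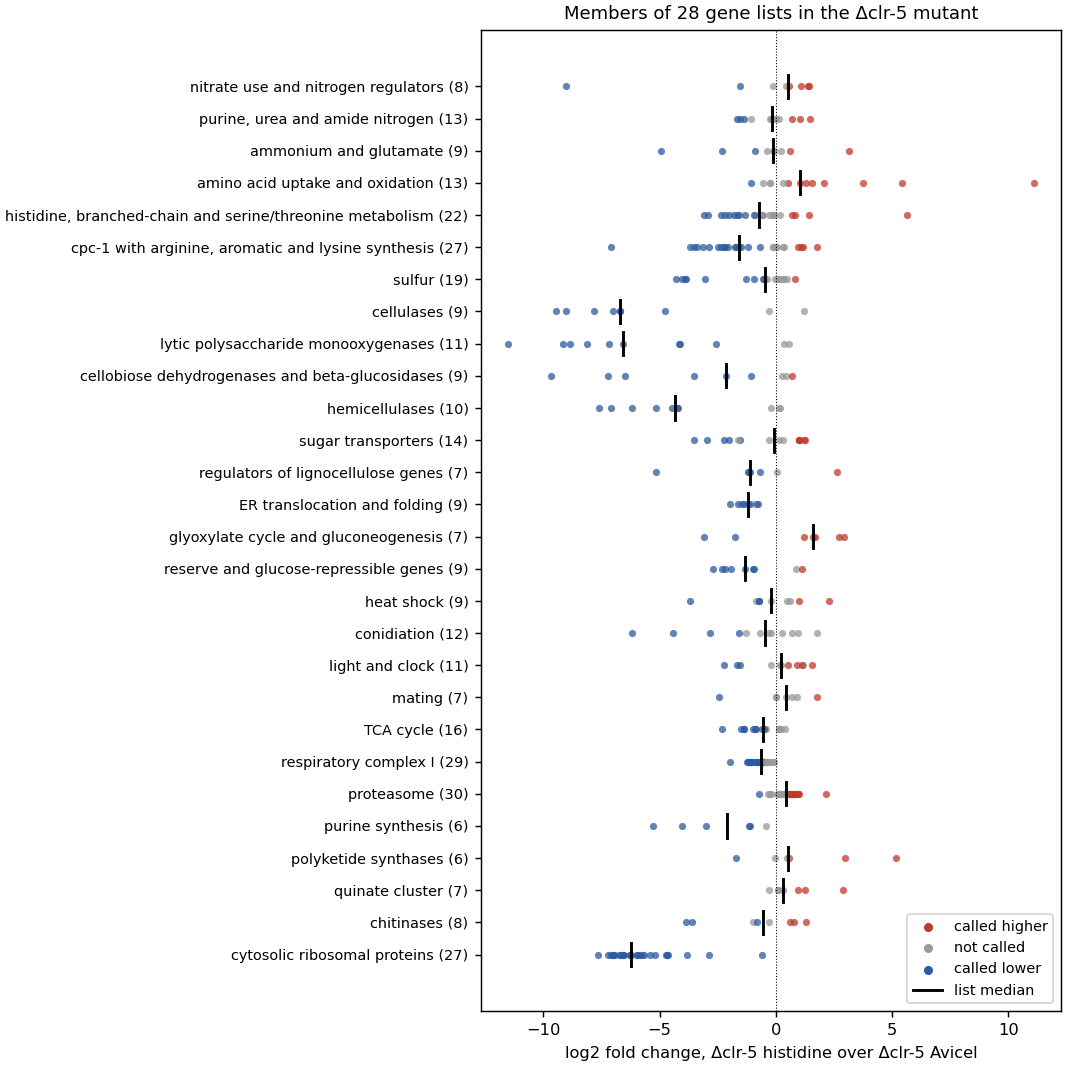
Log2 fold change of Δclr-5 on histidine over Δclr-5 on Avicel (x axis) for the tested members of 28 gene lists (y axis, number tested in brackets). Red points were called higher, blue points lower and grey points not called, and the black bar is the list median. The lists of ribosomal proteins, cellulases and polysaccharide monooxygenases have medians below -6, and amino acid uptake and oxidation lies at 1.03.

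Genes for enzymes that digest plant cell walls took a far smaller share of the counts on histidine than on Avicel. The 40 genes of 4 lists took 0.415% and 0.525% of the counts in Δclr-5 on histidine, against 20.1% and 14.4% in Δclr-5 on Avicel. Of the 9 tested cellulase genes 7 fell and 0 rose (median -6.71), where 27.6% of all genes fell and 27.2% rose. cbh-1, for the major cellobiohydrolase, had 143 and 357 CPM on histidine, against 70445 and 44208 CPM on Avicel (-7.84 ± 0.80 SE, adjusted p = 1.2e-05). gh6-2, the other abundant cellobiohydrolase gene, had 31.6 and 56.7 CPM on histidine, against 40585 and 21392 CPM on Avicel (-9.46 ± 0.99 SE, adjusted p = 2.04e-05). The endoglucanase gene gh5-1 had 43.6 and 110.4 CPM on histidine, against 9972 and 5859.8 CPM on Avicel (-6.68 ± 0.76 SE, adjusted p = 3.66e-05). In these 3 genes histidine culture 2 was above histidine culture 1, and both were far below the Avicel cultures.

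Of 11 polysaccharide monooxygenase genes 9 fell and 0 rose (median -6.59), where 27.6% of all genes fell and 27.2% rose. gh61-4 had 1.54 and 4.36 CPM on histidine, against 11055 and 6458 CPM on Avicel (-11.54 ± 0.91 SE, adjusted p = 2.96e-06), and gh61-7 had 4.8 and 6.88 CPM on histidine, against 4278 and 2452 CPM on Avicel (-9.17 ± 0.79 SE, adjusted p = 6.79e-06). gh61-3 and gh61-5 had log2 fold changes of -8.86 and -8.12. The next gene on the chromosome to gh61-4, NCU01049, had 2 counts in the 2 histidine libraries and 2139 in the 2 Avicel libraries, an Avicel to histidine ratio of 1350 (95% counting interval 372 to 11100). In the list of cellobiose dehydrogenases and beta-glucosidases 6 of 9 fell and 1 rose. cdh-1, whose product passes electrons from cellobiose to the monooxygenases, had 8.36 and 9.84 CPM on histidine, against 10904 and 3748 CPM on Avicel (-9.65 ± 1.17 SE, adjusted p = 7.6e-05), and the beta-glucosidase gene gh1-1 had 398 and 585 CPM on histidine, against 6533 and 4714 CPM on Avicel (-3.52 ± 0.36 SE, adjusted p = 1.11e-05). The gene that rose, gh3-3, singled out after its value was seen, reached 0.71, and that call was lost without Δclr-5 histidine culture 2. Among 10 hemicellulase genes 7 fell and 0 rose, including the xylanase genes gh10-1 with 19.4 and 34.7 CPM on histidine, against 5381 and 5233 CPM on Avicel (-7.62 ± 0.72 SE, adjusted p = 1.1e-05) and gh11-2 with 121 and 209.7 CPM on histidine, against 13192 and 10988 CPM on Avicel (-6.19 ± 0.46 SE, adjusted p = 1.29e-06). With library totals alone 1 cellulase, 1 hemicellulase and 3 genes of the list with the beta-glucosidases were called higher.

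Of the 7 regulators of these enzymes that were matched by name 5 fell and 1 rose, where 27.6% of all genes fell and 27.2% rose. clr-2, for the activator that drives the cellulase genes, had 8.87 and 12.5 CPM on histidine, against 544 and 225 CPM on Avicel (-5.17 ± 0.57 SE, adjusted p = 4.21e-05). clr-1, for the factor upstream of it, had 116 and 139 CPM on histidine, against 373 and 204 CPM on Avicel (-1.18 ± 0.28 SE, adjusted p = 0.00389). vib-1 (-1.14), cre-1 (-1.10), the carbon catabolite repressor gene, and col-26 (-0.68) were also lower, and xlr-1, the xylanase regulator gene, was not called (0.05). The calls of cre-1 and col-26 were lost without Avicel culture 1 (-0.72 and -0.12) and without histidine culture 2 (-1.01 and -0.74), so that 3 regulators were called lower, and that of col-26 was also lost without histidine culture 1. For col-26 the value was -1.09 without Avicel culture 2. Without Avicel culture 1 clr-1 stood at -0.68 and vib-1 at -0.61, and both were still called. rca-1, annotated as a myb-like protein, rose, with 415 and 440.4 CPM on histidine, against 53.6 and 85.5 CPM on Avicel (2.62 ± 0.30 SE, adjusted p = 3.66e-05). Of 14 sugar transporter genes 5 fell and 5 rose (27.6% and 27.2% over all genes). The cellodextrin transporter gene cdt-1 had 826 and 1051 CPM on histidine, against 5171 and 3504 CPM on Avicel (-2.21 ± 0.28 SE, adjusted p = 6.19e-05), and cdt-2, named after its value was seen, had 4998 and 6213 CPM on histidine, against 17478 and 14599 CPM on Avicel (-1.52 ± 0.25 SE, adjusted p = 0.000378).

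ER translocation and folding genes were lower in 8 of 9 cases (27.6% over all genes), by 1.20 in the median. grp78, for the luminal chaperone BiP, had 1393 and 953 CPM on histidine, against 4389 and 2094 CPM on Avicel (-1.47 ± 0.39 SE, adjusted p = 0.0076). The protein disulfide isomerase gene NCU09223 had 935 and 731 CPM on histidine, against 2005 and 1051 CPM on Avicel (-0.87 ± 0.33 SE, adjusted p = 0.0378). The ER share of all counts was 0.485% and 0.36% on histidine, against 0.974% and 0.599% on Avicel. Without histidine culture 2 the call of grp78 was lost (-1.22, adjusted p = 0.0732), and without Avicel culture 1 it stood at -0.84. NCU09223 was not called without Avicel culture 1 (-0.33) or with either histidine culture left out. NCU09485, an ER chaperone gene, missed the threshold (-0.85, adjusted p = 0.0597). It stood at -0.09 without Avicel culture 1 and at -1.35 without Avicel culture 2.

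**Figure D4:**
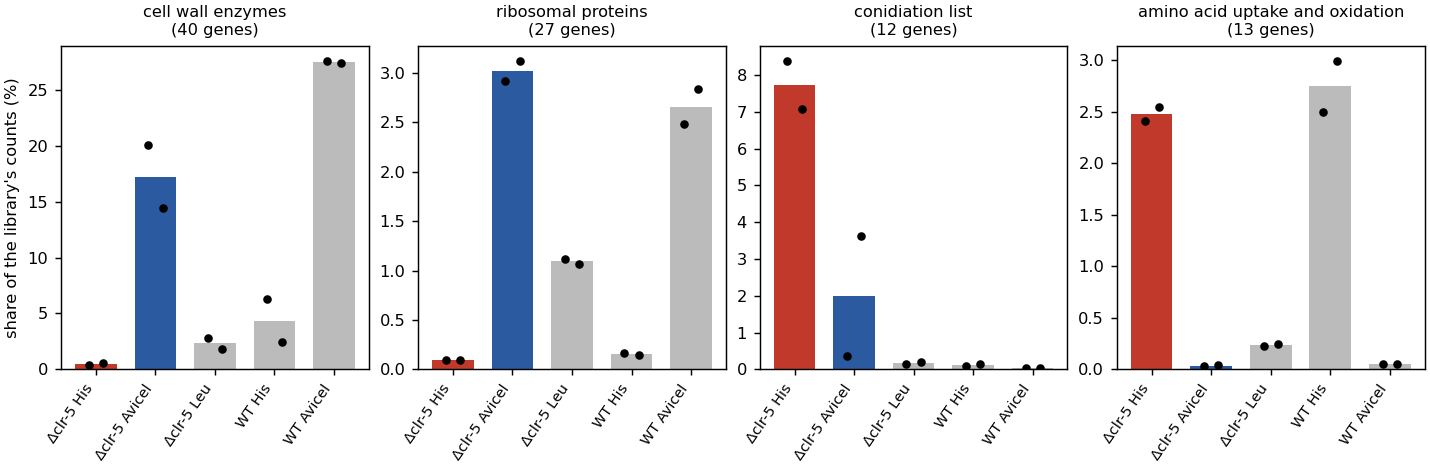
Share of each library's counts (y axis, %) taken by 4 groups of genes, with bars for the mean of 2 cultures and points for the cultures. Cell wall enzymes took 0.415% and 0.525% in Δclr-5 on histidine, against 20.1% and 14.4% in Δclr-5 on Avicel, and the conidiation list took 8.38% and 7.07%, against 0.349% and 3.62%. In the histidine libraries eas alone took 8.3% and 6.99%, and of the 12 conidiation genes 0 rose and 4 fell. Each panel has its own scale.

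Of the 12 tested conidiation genes 0 rose and 4 fell on histidine (27.2% and 27.6% over all genes), with a median of -0.48. The most abundant of them, eas, was high in both histidine cultures and in 1 of the Avicel cultures. eas, which encodes the hydrophobin of the spore coat, had 69555 and 59387 CPM on histidine, against 3293 and 34561 CPM on Avicel. It was the most abundant transcript on histidine, with 8.3% and 6.99% of all counts, and its 2 Avicel cultures lay far apart. Its log2 fold change was 1.77 ± 0.82 SE, adjusted p = 0.0887, not called. The value was 4.29 without Δclr-5 Avicel culture 2 and 0.9 without Δclr-5 Avicel culture 1. con-6 had 40.8 and 37.5 CPM on histidine, against 8.08 and 184 CPM on Avicel. fl, for a transcription factor that conidiation requires, had 195 and 166 CPM on histidine, against 80.8 and 357 CPM on Avicel. In both genes the histidine values lay between the 2 Avicel cultures. acon-3 had 81.5 and 102 CPM on histidine, against 17.9 and 93.2 CPM on Avicel. csp-1 had 129.7 and 119 CPM on histidine, against 80.2 and 209.6 CPM on Avicel. csp-2 had 124 and 123 CPM on histidine, against 102 and 294 CPM on Avicel. Both csp genes again had histidine values between the Avicel cultures, and in acon-3 the histidine values lay on either side of Avicel culture 2. These 5 genes were named after their values were seen. Without Avicel culture 2 the list had 6 higher and 3 lower, and without Avicel culture 1 it had 0 higher and 8 lower. con-13 had 5.92 and 6.25 CPM on histidine, against 19.9 and 241 CPM on Avicel (-4.42 ± 0.91 SE, adjusted p = 0.00222), or -1.71 without Δclr-5 Avicel culture 2, and con-8 had 77.1 and 48.4 CPM on histidine, against 298 and 598 CPM on Avicel (-2.83 ± 0.32 SE, adjusted p = 3.4e-05). con-10 fell by 1.57 on the log2 scale (adjusted p = 0.0427), a call that was lost without Avicel culture 2 (0.07) or with either histidine culture left out. Which of these cultures contained conidiating hyphae was not tested.

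Of 9 reserve and glucose-repressible genes 7 fell and 1 rose, where 27.6% of all genes fell and 27.2% rose. Of 7 genes for the glyoxylate cycle and gluconeogenesis 5 rose and 2 fell. acu-6, for phosphoenolpyruvate carboxykinase, had 1194 and 1098 CPM on histidine, against 78.7 and 274 CPM on Avicel (2.70 ± 0.63 SE, adjusted p = 0.00443), and acu-9, for malate synthase, had 124 and 106 CPM on histidine, against 9.55 and 20.2 CPM on Avicel (2.94 ± 0.43 SE, adjusted p = 0.000223). The acetyl-CoA synthetase gene acu-5, in contrast, had 43.7 and 35.5 CPM on histidine, against 481 and 195 CPM on Avicel (-3.09 ± 0.37 SE, adjusted p = 5.87e-05). In the reserve list the glycogen synthase gene gsy-1 stood at 67.2 and 76.5 CPM on histidine, against 560.0 and 385 CPM on Avicel (-2.72 ± 0.22 SE, adjusted p = 2.65e-06). ccg-9, for a clock-controlled trehalose synthase, fell by 2.33 on the log2 scale. The reserve list as a whole took 1.09% and 1.14% of the counts on histidine, against 0.394% and 0.731% on Avicel. Most of these counts on histidine came from ccg-15 and ccg-1, both named after their values were seen. ccg-15, the 1 member called higher, had 4565 and 5195 CPM on histidine, against 2186 and 2322 CPM on Avicel (1.11 ± 0.20 SE, adjusted p = 0.000709). ccg-1 had 4128 and 3995 CPM on histidine, against 722 and 3650.4 CPM on Avicel (0.89 ± 0.60 SE, adjusted p = 0.221) and was not called. Its value was 2.49 without Avicel culture 2 and 0.15 without Avicel culture 1.

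Of 6 polyketide synthase genes 3 rose and 1 fell. pks-3 had 2237 and 2029.8 CPM on histidine, against 61.8 and 55.7 CPM on Avicel (5.18 ± 0.19 SE, adjusted p = 2.57e-08). The call of pks-1 (0.59) was lost with either histidine culture left out or without Avicel culture 2 (0.35), and that of pks-6 (-1.73) with either histidine culture left out or without Avicel culture 1 (-0.72). Without Avicel culture 1 the list had 5 higher and 0 lower. Among smaller lists, the quinate cluster, whose genes break down quinate, had 3 of 7 members higher, led by qa-4 (2.89). Chitinases split into 3 higher and 3 lower of 8. Over all genes 27.2% were higher and 27.6% lower. In the quinate cluster the call of qa-X was lost without Avicel culture 1 (0.62) or without histidine culture 2 (0.80). gh18-4 had 14.3 and 11.5 CPM on histidine, against 25.3 and 286 CPM on Avicel (-3.59 ± 0.83 SE, adjusted p = 0.0044), or -0.97 without Δclr-5 Avicel culture 2. Light and clock genes split into 4 higher and 3 lower of 11, and heat shock genes into 2 higher and 3 lower of 9, both shares near the 54.9% called among all genes. In the heat shock list hsp70-2 fell by 3.71 and hsp30 rose by 2.28 on the log2 scale, and the call of hsp98 (0.99) was lost without Avicel culture 2 (0.75). Without Avicel culture 1 the list had 4 higher members. In the mating list 1 of 7 rose (poi-2, 1.78) and 1 fell (pre-2, -2.46), and 2 were higher with either Avicel culture left out.

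Several of the largest increases belonged to genes without an annotation in the sources used here. NCU09854 had 467 and 455 CPM on histidine and no count on Avicel (20282 counts against 0), which makes it at least 5370-fold higher. Its neighbour in locus number, NCU09855, had 60.5 and 73.3 CPM on histidine, against 0.979 and 0.215 CPM on Avicel (6.84 ± 0.37 SE, adjusted p = 1.49e-07). NCU09115 had 4267 and 4307 CPM on histidine, against 75.2 and 78 CPM on Avicel (5.81 ± 0.24 SE, adjusted p = 2.93e-08) and NCU10040 had 6253 and 7287 CPM on histidine, against 54.6 and 78.6 CPM on Avicel (6.67 ± 0.49 SE, adjusted p = 1.17e-06). NCU02880 rose by 8.18 and NCU02879 by 6.14, NCU05477 by 6.61, NCU05499 by 5.85 and NCU04342 by 5.69 on the log2 scale. These 9 genes were picked among genes with both histidine libraries above both Avicel libraries, so that separation was a condition of the choice. On the other side, NCU07898 had 1.59 and 2.52 CPM on histidine, against 8378 and 4096 CPM on Avicel (-11.57 ± 1.05 SE, adjusted p = 1.09e-05). NCU09416 (-10.13), NCU01076 (-9.48), NCU09664 (-9.47) and NCU09764 (-9.31) were also among the largest decreases. The choice of these genes likewise required both histidine libraries below both Avicel libraries.

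Some of these genes lay side by side. Of 8797 pairs of neighbouring tested genes, 40 had both members called at a log2 fold change of 3 or more and 49 had both at -3 or less. Runs of at least 3 such neighbours numbered 12, of which 8 were higher and 4 lower (coordinates from the RefSeq annotation of assembly NC12). The run NCU02880 to NCU02877 on chromosome I, from 8823648 to 8836416, held 4 genes with log2 fold changes of 3.71 to 8.18. Its last gene, NCU02877, named after its value was seen, had 1499 and 1674 CPM on histidine, against 91.1 and 151 CPM on Avicel. A run of 4 on chromosome III, from 5028419 to 5038689, ended in NCU10276, also named afterwards, with 1612 and 1929.6 CPM on histidine, against 42.7 and 149.5 CPM on Avicel. NCU11365, the aminotransferase gene above, headed a run of 3 on chromosome IV, from 191867 to 197458, with log2 fold changes of 4.15 to 5.64. The longest run held 5 genes on chromosome V, from 6409845 to 6433447. NCU07898 lay in the middle of a run of 3 lower genes on chromosome IV, from 1410133 to 1417503.

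The response of Δclr-5 was then set against that of WT to the same media, with no library in common. The interaction test called 468 genes with a higher and 795 with a lower response in Δclr-5 than in WT, or 5.32% and 9.03% of the tested genes (14.3% in either direction, median difference -0.08). These counts moved widely when single libraries were left out. The higher ones numbered 921 without Δclr-5 Avicel culture 1, 169 and 241 without Δclr-5 histidine culture 1 or 2, 249 without WT Avicel culture 1 and 252 without WT histidine culture 2. The lower ones numbered 1471, 302, 371, 333 and 480 in the same 5 fits. With library totals alone there were 311 higher and 1303 lower. Cellulase and monooxygenase genes fell further in Δclr-5: 5 of 9 cellulase genes and 6 of 11 monooxygenase genes had a lower response and 0 a higher one, with median differences of -3.21 and -2.26. With single libraries left out, 3 to 6 cellulase genes and 5 to 6 monooxygenase genes had a lower response, the 3 without Δclr-5 histidine culture 1 or WT Avicel culture 1. Without Δclr-5 Avicel culture 1, 1 monooxygenase gene had a higher one. On histidine gh6-2 stood at 31.6 and 56.7 CPM in Δclr-5, against 4892 and 826 CPM in WT, a difference in response of -5.42 ± 1.03 SE, adjusted p = 0.00834. cbh-1 stood at 143 and 357 CPM in Δclr-5 on histidine, against 17654 and 4971 CPM in WT on histidine (-4.78 ± 0.88 SE, adjusted p = 0.00618). gh61-4 differed by -5.86 ± 0.90 SE, adjusted p = 0.0029 and gh61-3 by -4.96 ± 0.64 SE, adjusted p = 0.00104. clr-2 differed in the same direction (-2.77 ± 0.70 SE, adjusted p = 0.0284), and so did cdt-1 (-2.16 ± 0.39 SE, adjusted p = 0.00531). The call of clr-2 was lost in 6 of 8 fits that left out 1 library (-3.04 to -1.95 in those), and that of gh6-2 without WT Avicel culture 1 (-5.33) or Δclr-5 histidine culture 1 (-5.06). The call of gh5-1 (-4.07 ± 0.87 SE, adjusted p = 0.0136) was lost without either WT Avicel culture (-4.09 and -3.98) or without Δclr-5 histidine culture 1 (-3.55, adjusted p = 0.0602).

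ER genes differed in the opposite direction. All 9 had a positive difference and 8 were called (5 without Δclr-5 histidine culture 1), with a median of 1.88, and the medians within the strains were -1.20 in Δclr-5 and -3.10 in WT. grp78 stood at 1393 and 953 CPM in Δclr-5 on histidine, against 558 and 277 CPM in WT on histidine, and at 4389 and 2094 CPM in Δclr-5 on Avicel, against 9069 and 8078 CPM in WT on Avicel (2.89 ± 0.55 SE, adjusted p = 0.0073). The disulfide isomerase gene NCU09223 (2.32 ± 0.46 SE, adjusted p = 0.00897) and the translocon gene NCU04127 (1.88 ± 0.27 SE, adjusted p = 0.00188) showed the same pattern. Ribosomal protein genes fell in both strains, with medians of -6.24 in Δclr-5 and -5.36 in WT and a median difference of -0.81. A lower response in Δclr-5 was called for 2 of these 27, near the 9.03% over all genes, and that count changed when single libraries were left out. Proteasome genes rose in 14 of 30 cases in Δclr-5, where 27.2% of all genes rose, and in 26 of 30 in WT, where 27.7% rose and 52.1% were called in either direction. A lower response in Δclr-5 was called for 3 of 30, near the 9.03% over all genes, and for 0 to 14 with single libraries left out.

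Nitrogen lists had more lower than higher responses in Δclr-5, apart from nitrate (0 lower and 1 higher of 8). The histidine, branched-chain, serine and threonine list had 6 lower and 1 higher of 22. Amino acid uptake and oxidation had 4 lower and 1 higher of 13, as had purines, urea and amides. Ammonium and glutamate had 1 lower and 0 higher of 9. Over all genes 9.03% were lower and 5.32% higher. Counts in each list changed when single libraries were left out. NCU11365 stood at 163 and 177 CPM in Δclr-5 on histidine, against 681 and 737 CPM in WT on histidine (-2.96 ± 0.25 SE, adjusted p = 0.000124). leu-4, for isopropylmalate synthase, stood at 73.8 and 91.2 CPM in Δclr-5 on histidine, against 293 and 263 CPM in WT on histidine (-1.89 ± 0.28 SE, adjusted p = 0.00188), and NCU06881 differed by -2.38 ± 0.30 SE, adjusted p = 0.000751. NCU00711 (-1.89 ± 0.21 SE, adjusted p = 0.000393) and lao (-1.77 ± 0.24 SE, adjusted p = 0.00147) also had the lower response in Δclr-5, and pmb (1.26 ± 0.28 SE, adjusted p = 0.014) the higher one, though not without Δclr-5 histidine culture 1 (1.24, adjusted p = 0.0587). NCU01402 reached 17358 and 18508 CPM in Δclr-5 on histidine, against 17190.2 and 19954 CPM in WT on histidine, and its difference in response did not pass the test (-3.44, adjusted p = 0.065). Without Δclr-5 Avicel culture 1, which leaves 1 library in that group, the difference was -4.28. The polyketide synthase gene pks-3 stood at 2237 and 2029.8 CPM in Δclr-5 on histidine, against 98.4 and 89.3 CPM in WT on histidine (2.38 ± 0.23 SE, adjusted p = 0.000232).

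The largest differences were ranked among called genes with a mean log2 CPM of at least 3 whose responses did not overlap between the strains. On the positive side they were those of NCU07046, NCU05819, NCU04475, NCU01424 and NCU09395 (4.32 to 3.41). NCU07046 stood at 159 and 117 CPM in Δclr-5 on histidine and 10.8 and 8.82 CPM in Δclr-5 on Avicel, against 10.3 and 9.63 CPM in WT on histidine and 12.4 and 16 CPM in WT on Avicel (4.32 ± 0.27 SE, adjusted p = 7.97e-05). Within WT its log2 fold change was -0.51, and within Δclr-5 it was 3.81. The largest negative differences under the same conditions were those of ccg-13, app, gh61-4, NCU09184 and NCU08785 (-6 to -5.47). The call of app (-5.87) was lost without WT histidine culture 2 (-1.42) or WT Avicel culture 1, and that of NCU09184 (-5.62) in 7 of 8 fits that left out 1 library, among them the one without Δclr-5 Avicel culture 2 (-2.80). ccg-13 stood at 24.7 and 30.2 CPM in Δclr-5 on histidine and 119 and 134 CPM in Δclr-5 on Avicel, against 54.3 and 108 CPM in WT on histidine and 5 and 6.67 CPM in WT on Avicel (-6 ± 0.44 SE, adjusted p = 0.000113). The plot of both responses shows most cellulase and monooxygenase genes below the line of equal response and the ER genes above it.

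**Figure D5:**
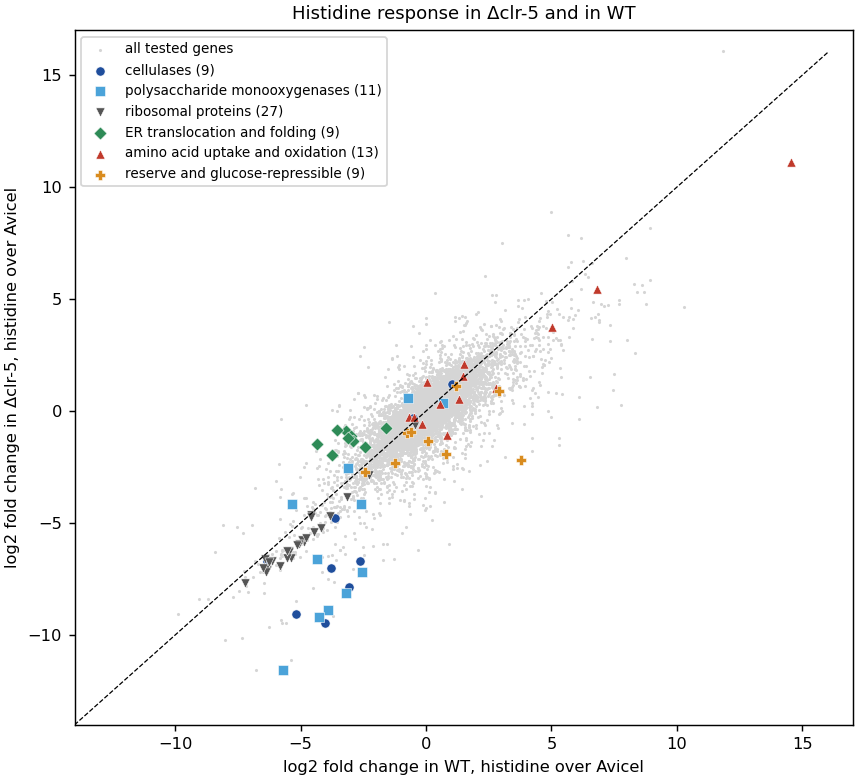
Log2 fold change of histidine over Avicel in Δclr-5 (y axis) against that in WT (x axis), 1 grey point per tested gene, with 6 gene lists in colour and the number of tested members in brackets. The dashed line marks equal responses. The 9 ER genes lie above the line, with a median difference of 1.88, and most cellulase and monooxygenase genes lie below it.

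Finally, Δclr-5 on histidine was compared with Δclr-5 on leucine, in which 50 mM leucine replaced histidine. Here 2078 genes were higher and 2588 lower on histidine, or 23.6% and 29.4% of the tested genes (53.0% in either direction, median -0.04). This comparison has the 2 histidine libraries in common with the one above. NCU01402 stood at 17358 and 18508 CPM on histidine, against 547 and 682 CPM on leucine (4.87 ± 0.75 SE, adjusted p = 0.000355), and mtr at 1544 and 1795 CPM on histidine, against 255 and 279.8 CPM on leucine (2.64 ± 0.56 SE, adjusted p = 0.00275). NCU10040 (6253 and 7287 CPM on histidine, against 4684 and 7510.3 CPM on leucine) and NCU11365 (163 and 177 CPM, against 208 and 169 CPM on leucine) were not called between these media. Among genes with a mean log2 CPM of at least 3 that were called and did not overlap between the media, the largest differences toward histidine were those of NCU09854, NCU00848, eas, NCU02880 and NCU05477. eas stood at 69555 and 59387 CPM on histidine, against 240.1 and 458 CPM on leucine (7.53 ± 1.06 SE, adjusted p = 0.00022), and NCU00848, annotated as the membrane protein TmpA, at 3366 and 3165 CPM on histidine, against 13 and 16 CPM on leucine (7.82 ± 0.54 SE, adjusted p = 1.24e-06).

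Toward leucine, 20 of 22 genes of the histidine, branched-chain, serine and threonine list and 22 of 27 of the list around cpc-1 were lower on histidine and 0 higher, with medians of -1.66 and -2.92. Ribosomal protein genes were lower on histidine than on leucine in 26 of 27 cases (median -4.41). Over all genes 29.4% were lower on histidine than on leucine and 23.6% higher. Among cellulase genes 6 of 9 were lower and 2 higher on histidine, with cbh-1 at 143 and 357 CPM on histidine, against 10966 and 6005 CPM on leucine (-5.09 ± 0.71 SE, adjusted p = 0.000123). NCU04169, NCU07898, gh61-4, NCU01351 and NCU01061 had the largest differences toward leucine within the same limits. NCU04169 stood at 3.34 and 4.36 CPM on histidine, against 1996 and 1327 CPM on leucine (-8.75 ± 0.72 SE, adjusted p = 6.31e-06), and the dienelactone hydrolase gene NCU01061 at 0.815 and 1.31 CPM on histidine, against 174 and 213 CPM on leucine (-7.51 ± 0.43 SE, adjusted p = 3.73e-07). ER genes, by contrast, were higher on histidine than on leucine in 4 of 9 cases and lower in 0 (median 0.54).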

How the data were processed

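RNA was measured in mycelium of 12 libraries, 2 for each of 6 groups of strain and medium. The deposited values are whole-number counts per gene, which the authors made from uniquely mapped reads. The submitters' processing notes name TopHat2 2.0.8b and HTSeq 0.13.5. The methods section names N. crassa OR74A as the genome. The strand setting is not given in the sources used here, so reads from overlapping and antisense genes cannot be told apart.

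Counts were taken as deposited. edgeR 4.0.16 in R 4.3.3 was used with TMM factors, its filter on low counts, which kept 8805 of 9730 genes, and a robust quasi-likelihood fit over all 6 groups with 6 residual degrees of freedom. P-values were adjusted by Benjamini-Hochberg over the 8805 genes. Calls needed an adjusted p under 0.05 together with a log2 fold change of 0.5 or more in size. The difference between strains was an interaction term of the same fit. Standard errors are the log2 fold change divided by the root of F. A fold against no counts used a floor of 3 counts over the group, and intervals cover counting error only. The test script was tested on simulated data.

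The members and the gene lists were chosen with earlier results of these data known. Named genes were clr-5, the 10 largest and 10 smallest called changes among genes with a mean log2 CPM of at least 3 and no overlap between the media, genes named in the study, up to 4 called members of each list by size of change, all members of the nitrogen lists, and the 5 largest and 5 smallest values of each further comparison. cpc-1, cpc-3, arg-4, arg-13, met-7, mfa-1, con-6, fl, acon-3, csp-1, csp-2, ccg-1, ccg-15, NCU10276, NCU02877, cdt-2, gh3-3 and matA-1 were named after their values were seen. Symbols and positions came from the RefSeq table of assembly NC12, in which 9729 of 9730 loci were found, 1118 with a symbol. Lists hold only genes whose name or locus matched that table, so they need not cover a whole class. Names left unmatched numbered 6 for cellulases, 16 for hemicellulases and 9 for regulators of lignocellulose genes, and other lists had some too. Product names for 1937 loci came from the annotation column of a supplementary table of the study. The alternatives were DESeq2 1.42.0, RLE factors, library totals alone, no filter, a mean log2 CPM of at least 3, the adjusted p alone, the libraries of the comparison alone, a block for the replicate number and leaving out each library in turn.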

Additional observations from a re-analysis of the deposited data

Results flagged for a closer look

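The interaction test found a difference between the histidine responses of Δclr-5 and WT in 468 genes in the higher and 795 in the lower direction. The genes described in the text that passed it are given here as the log2 response of Δclr-5 minus that of WT. Of the cellulose-related genes, gh61-4 differed by -5.86, gh6-2 by -5.42, gh61-3 by -4.96, cbh-1 by -4.78, gh5-1 by -4.07, clr-2 by -2.77 and cdt-1 by -2.16. Of the nitrogen genes, NCU11365 differed by -2.96, NCU06881 by -2.38, NCU00711 by -1.89, leu-4 by -1.89, lao by -1.77 and pmb by 1.26. Of the ER genes, grp78 differed by 2.89, NCU09223 by 2.32 and NCU04127 by 1.88. The polyketide synthase gene pks-3 differed by 2.38. Among genes with a mean log2 CPM of at least 3 that were called and whose responses did not overlap between the strains, the largest values belonged to NCU07046 (4.32), NCU05819 (3.73), NCU04475 (3.61), NCU01424 (3.51) and NCU09395 (3.41) on the positive side. On the negative side, within the same limits, they belonged to gh61-4 (above), ccg-13 (-6), app (-5.87), NCU09184 (-5.62) and NCU08785 (-5.47). The calls of clr-2, gh5-1, gh6-2, pmb, app and NCU09184 were each lost in at least 1 fit that left out 1 library, as described above. The strains also differed in mating type, and the share of that difference in these values was not tested.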

How the results depend on the processing

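The counts for histidine against Avicel in Δclr-5 stayed within 1.5 times of 2397 higher and 2433 lower genes under every alternative run. With only the 4 libraries of the comparison there were 1875 higher and 2100 lower. Leaving out single libraries gave 2035 to 2579 higher and 2063 to 2435 lower, DESeq2 2318 and 2509, and library totals alone 3481 and 1682. Histidine against leucine gave 1710 to 1798 higher and 2153 to 2325 lower with single libraries left out. The difference between strains was the least stable. It gave 169 to 921 higher and 302 to 1471 lower with single libraries left out, 311 and 1303 with library totals alone, and 247 and 448 with only the 8 libraries of the comparison, and the cause was not tested. Deviations of same-numbered cultures correlated at -0.13, -0.032 and -0.126. With 2 cultures a group, these values cannot show whether same-numbered cultures were started together. The replicate block gave 2371 and 2348 for histidine against Avicel, 397 and 648 for the difference between strains and 2058 and 2533 against leucine. Under the block the call of con-10 was lost and eas was called higher (2.44). Some of the 175 named calls were lost in every fit that left out 1 library of the comparison. Of the values that were called either with all libraries or, in the opposite direction, without 1 library, 7 changed direction. The sign changed for 21 of 213 named genes in the histidine response and for 55 of 213 in the difference between strains, most of them called in neither fit. con-6 ranged between -2.23 without Δclr-5 Avicel culture 1 and 2.27 without Δclr-5 Avicel culture 2, fl between -0.99 and 1.15, csp-1 between -0.75 and 0.63 and con-10 between -2.32 and 0.07 in the same fits. The strain difference of eas ranged between -1.46 and 1.93 and that of fl between -1.18 and 0.96. leu-2 stood at 0.86 without Avicel culture 1 and at -1.65 without Avicel culture 2. With 2 cultures a group, the spread between cultures limits these results more than the depth of at least 16797962 counts.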
